A study of Mus musculus with 7 samples.

Results

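The 9 genes described here, Bcl2, Bcl2l1, Mcl1, Bcl2l11, Bbc3, Pmaip1, Ripk3, Mlkl and Gsdmd, belong to the machinery of apoptosis, necroptosis and pyroptosis. They were listed by name and not by a limit on their values. Earlier results of these data were known when the 9 genes and all lists below were chosen. Their counts beside the shares of all tested genes therefore describe the lists and do not test them. All 9 passed the filter on low counts, among 17155 genes that were tested of 32285 in the count files. The libraries came from utricles, the vestibular organs of the inner ear that sense linear acceleration, taken from P2 wild-type C57BL/6J mice and cultured as whole explants. All explants were damaged with 2 mM gentamicin, an aminoglycoside antibiotic that kills hair cells, for 24 h, and RNA was collected at day 5 post-injury. In the Gent+Fos OE group (4 libraries), explants were also given an AAV-PHP.eB vector for 48 h that carries mouse Fos behind a CMV promoter, which is active in many cell types, and the Gent group (3 libraries) is labelled with gentamicin alone. The headers of the Gent counts hold the letters sh, which can be short for shRNA, whereas the paper speaks of a control AAV for the sequencing and elsewhere of AAV-EGFP in gentamicin controls. The sources thus differ on whether these explants received a virus and on which. Every fold change below, Gent+Fos OE over Gent, rests on the labels, and if the Gent explants had received a Fos shRNA it would compare overexpression with knockdown, for Fos itself too. Undamaged explants were not analysed here, so the values compare damaged tissue with damaged tissue.

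Apoptosis by the mitochondrial route is set by the BCL2 protein family. Guardians such as BCL2, BCL-XL and MCL1 hold the pore formers BAX and BAK in check, and BH3-only proteins such as BIM, PUMA and NOXA bind the guardians and release the pore formers. Necroptosis and pyroptosis are lytic: in necroptosis the kinase RIPK3 phosphorylates MLKL, which then permeabilizes the plasma membrane, and in pyroptosis inflammatory caspases cut gasdermin D, whose fragment opens pores in that membrane. Aminoglycosides are known to kill hair cells in large part by apoptosis. Transcript levels report how much messenger is present and not whether these proteins, many of which act after cleavage or phosphorylation, were active.

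Fos, the gene carried by the vector, checks the labels. Its level, in TMM-normalized CPM (counts scaled to a common library size), was 151, 151, 167 and 149 in Gent+Fos OE replicates 1 to 4 and 39.5, 40.6 and 34.6 in Gent replicates 1 to 3, so the groups did not overlap. In edgeR's quasi-likelihood fit the log2 fold change was 2.01 (SE 0.13, adjusted p = 0.000142, Benjamini-Hochberg over all tested genes). The counts do not separate transcripts of the vector from those of the endogenous gene. Library totals ran from 27879889 to 34335214 counts, and each library is a pool of 12 utricles, so the spread given here is a spread between pools. Gent replicate 2 stood apart: across genes its deviations followed gene length (Spearman's rho -0.50), while rho was -0.22 in Gent replicate 3, 0.15 in Gent replicate 1 and 0.12 to 0.33 in the 4 Gent+Fos OE libraries. The log2 fold changes of all tested genes followed length as well, with rho 0.38, or 0.19 without Gent replicate 2. For that reason fits without this library, and fits with each library's trend on gene length removed, were also made.

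At the limits of the study's methods, an adjusted p under 0.01 with an absolute log2 fold change over 0.25, 0 of the 9 genes were called by edgeR, against 0.414% of all tested genes. DESeq2 called 2 of them, Mlkl and Gsdmd, both lower in Gent+Fos OE; of the 15678 genes to which it gave an adjusted p it called 3.9%, and 2.14% in that direction. Without Gent replicate 2, edgeR called 1 of the 9, Mlkl, where 0.787% of all tested genes were called, 0.531% as lower. At an unadjusted p under 0.05, edgeR gave 1 gene higher (Bcl2l11) and 3 lower (Ripk3, Mlkl and Gsdmd), where 24.5% of all tested genes passed. At an adjusted p under 0.05, 2 of the 9 passed, Mlkl and Gsdmd, against 1.86% of all tested genes in either direction and 1.19% in the same, lower direction. The groups did not overlap for 4 of the 9 genes, 3 lower and 1 higher, against 23.4% of all tested genes. The median log2 fold change of the 9 genes was 0.09, with 5 above 0 and 4 below, beside 0 for all tested genes. The 3 genes of lytic death lay on the lower side and 5 of the 6 apoptosis genes on the higher side, all but Bcl2l1; without Gent replicate 2 it was again 5 of 6, all but Pmaip1.

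**Figure D1:**
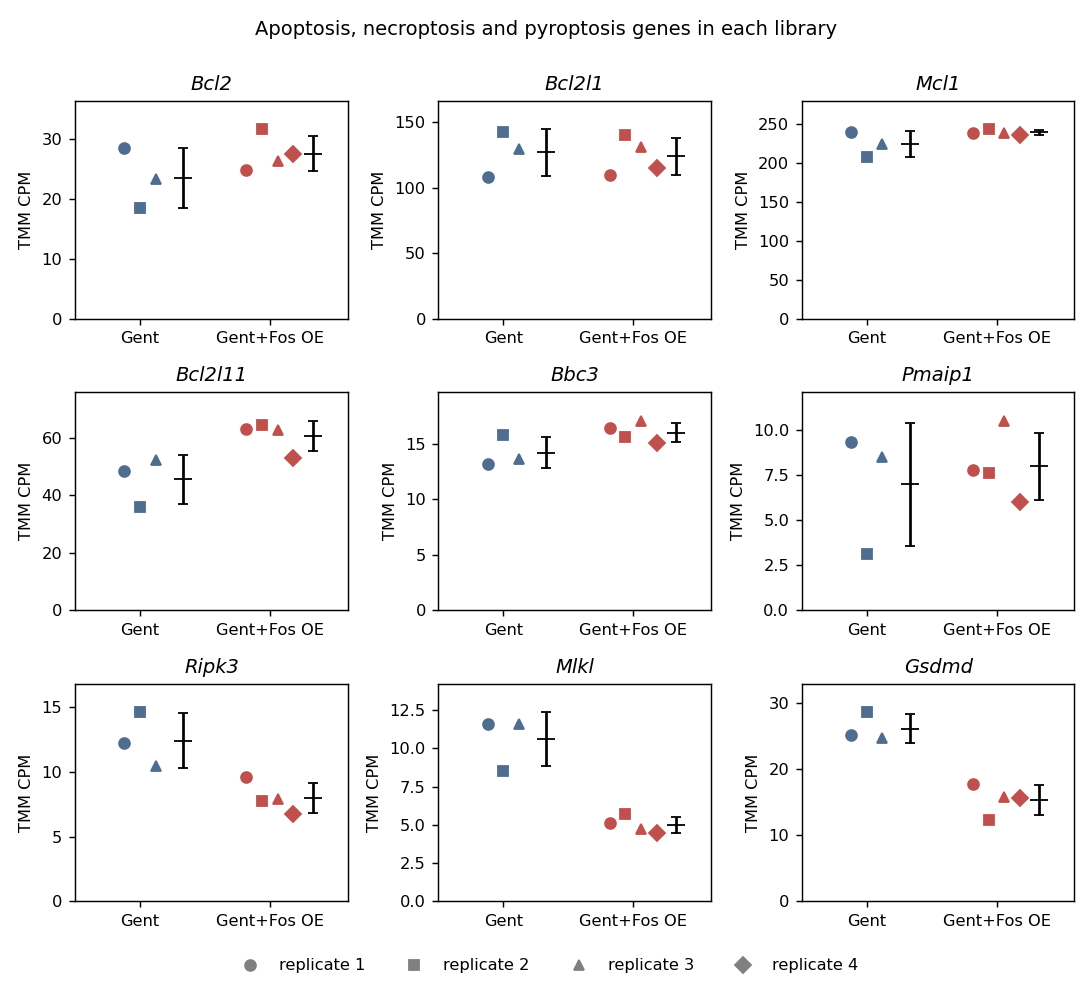
Expression of the 9 genes in each library, in TMM-normalized CPM on linear axes that start at 0, with Gent (3 libraries) on the left and Gent+Fos OE (4 libraries) on the right of each panel. Symbols mark the replicate number and bars the mean ± SD of the group; the Gent+Fos OE libraries lie below all Gent libraries for Ripk3, Mlkl and Gsdmd, lie above them for Bcl2l11, and overlap them for the other 5 genes.

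For none of the 3 guardians did the groups differ by more than the spread between libraries. Mcl1 (ENSMUSG00000038612, mm10 chromosome 3, 95658788 to 95663176), a short-lived guardian, measured 238, 243, 238 and 235 CPM in Gent+Fos OE and 240, 207 and 224 CPM in Gent. The 4 overexpression libraries were tightly grouped and lay within the range of the Gent libraries or just above it. Its log2 fold change was 0.09 (95% confidence interval -0.16 to 0.34, edgeR adjusted p = 0.625), with 0.04 without Gent replicate 2 and 0.14 with the length trend removed. Bcl2l1 (ENSMUSG00000007659, mm10 chromosome 2, 152780668 to 152831728) encodes BCL-XL and measured 110, 140, 131 and 115 CPM in Gent+Fos OE and 108, 143 and 130 CPM in Gent. The ranges nearly coincided, and the log2 fold change was -0.04 (95% confidence interval -0.35 to 0.28, adjusted p = 0.895), or 0.05 without Gent replicate 2. Changes inside these intervals are compatible with the values of each gene.

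Bcl2 (ENSMUSG00000057329, mm10 chromosome 1, 106538178 to 106714274), the founding member of the family, measured 24.8, 31.7, 26.4 and 27.5 CPM in Gent+Fos OE and 28.5, 18.5 and 23.3 CPM in Gent. Gent replicate 2 was the lowest library and Gent replicate 1 lay among the overexpression libraries. For Bcl2 the log2 fold change came to 0.24 (95% confidence interval -0.13 to 0.60, adjusted p = 0.386). It was 0.09 without Gent replicate 2 and 0.01 with the length trend removed. Bcl2 has long exons in this annotation (9157 bp in all, against a median of 4084 bp over tested genes), and 6.09% of them are shared with another gene that had 13 counts in all libraries together.

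Of the 3 BH3-only genes, which favour apoptosis, Bcl2l11 had groups that did not overlap, and Bbc3 and Pmaip1 had groups that did. Bcl2l11 (ENSMUSG00000027381, mm10 chromosome 2, 128126038 to 128162547) encodes BIM and measured 63.0, 64.3, 62.9 and 52.8 CPM in Gent+Fos OE and 48.3, 35.8 and 52.4 CPM in Gent. The margin was narrow, since Gent+Fos OE replicate 4 lay just above Gent replicate 3. For Bcl2l11 edgeR gave a log2 fold change of 0.42 (95% confidence interval 0.08 to 0.75, unadjusted p = 0.02, adjusted p = 0.148), and a two-sided exact permutation test with its 35 arrangements gave p = 0.0571, where the smallest possible value is 0.0286. Without Gent replicate 2 the log2 fold change was 0.27 (adjusted p = 0.196), and with the length trend removed it was 0.23 (adjusted p = 0.245). The exons of Bcl2l11 are long as well, at 8029 bp in all.

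Bbc3 (ENSMUSG00000002083, mm10 chromosome 7, 16308393 to 16318205) encodes PUMA, a p53 target that binds all guardians, and measured 16.4, 15.6, 17.1 and 15.1 CPM in Gent+Fos OE and 13.2, 15.8 and 13.6 CPM in Gent. The groups overlapped through Gent replicate 2, and the log2 fold change was 0.17 (95% confidence interval -0.13 to 0.47, adjusted p = 0.445). For Bbc3 it was 0.25 (adjusted p = 0.302) without that library and 0.31 (adjusted p = 0.178) with the length trend removed. Pmaip1 (ENSMUSG00000024521, mm10 chromosome 18, 66458533 to 66465565) encodes NOXA, which acts on MCL1, and measured 7.75, 7.62, 10.5 and 5.99 CPM in Gent+Fos OE and 9.34, 3.08 and 8.47 CPM in Gent. Its low value in Gent replicate 2 set the sign of the comparison. Pmaip1 had a log2 fold change of 0.19 (95% confidence interval -0.55 to 0.94, adjusted p = 0.739) with all libraries and -0.16 (adjusted p = 0.704) without Gent replicate 2. The interval of Pmaip1 is the widest of the 9.

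All 3 lytic genes had lower levels in Gent+Fos OE. Mlkl (ENSMUSG00000012519, mm10 chromosome 8, 111311797 to 111338177), the executioner of necroptosis, was 2.11-fold lower in Gent+Fos OE. It measured 5.15, 5.70, 4.72 and 4.46 CPM in Gent+Fos OE and 11.6, 8.49 and 11.6 CPM in Gent, from 125 to 186 and from 265 to 400 counts in a library. Every overexpression library lay below every Gent library, with a wide gap. The log2 fold change was -1.08 (SE 0.18, 95% confidence interval -1.48 to -0.67, adjusted p = 0.0178), and the exact permutation test gave 0.0286, the smallest p it can give. It was -1.21 without Gent replicate 2 (adjusted p = 0.00347, past the 0.01 limit) and -0.97 with the length trend removed (adjusted p = 0.0285). Leaving out each library in turn gave log2 fold changes from -1.21 to -1.0, with adjusted p between 0.00347 and 0.0864; the value was above 0.05 without Gent+Fos OE replicate 1, without Gent+Fos OE replicate 3 and without Gent replicate 3.

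Ripk3 (ENSMUSG00000022221, mm10 chromosome 14, 55784995 to 55788865), the kinase that activates MLKL, measured 9.57, 7.72, 7.92 and 6.77 CPM in Gent+Fos OE and 12.2, 14.6 and 10.4 CPM in Gent. The groups did not overlap, although Gent+Fos OE replicate 1 and Gent replicate 3 were close. Ripk3 had a log2 fold change of -0.63 (SE 0.18, 95% confidence interval -1.03 to -0.23, adjusted p = 0.0995), with p = 0.0571 in the exact permutation test. DESeq2 gave an adjusted p of 0.028 for the same gene, and edgeR without Gent replicate 2 a log2 fold change of -0.50 (adjusted p = 0.144). Neither limit on the adjusted p was passed by Ripk3 in edgeR.

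Gsdmd (ENSMUSG00000022575, mm10 chromosome 15, 75862327 to 75867408), the pore former of pyroptosis, was 1.7-fold lower in Gent+Fos OE. It measured 17.7, 12.3, 15.7 and 15.6 CPM in Gent+Fos OE and 25.1, 28.6 and 24.7 CPM in Gent. The groups were well separated, with the lowest value in Gent+Fos OE replicate 2. Its log2 fold change was -0.77 (SE 0.15, 95% confidence interval -1.10 to -0.43, adjusted p = 0.0348), and the exact permutation test again gave its smallest p, 0.0286. Removing the length trend gave -0.66 (adjusted p = 0.0301) and leaving out Gent replicate 2 gave -0.70 (adjusted p = 0.0313). Across the fits that leave out 1 library the log2 fold change ran from -0.85 to -0.68 and the adjusted p from 0.0313 to 0.124, and it was under 0.05 only without Gent replicate 1 or without Gent replicate 2.

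**Figure D2:**
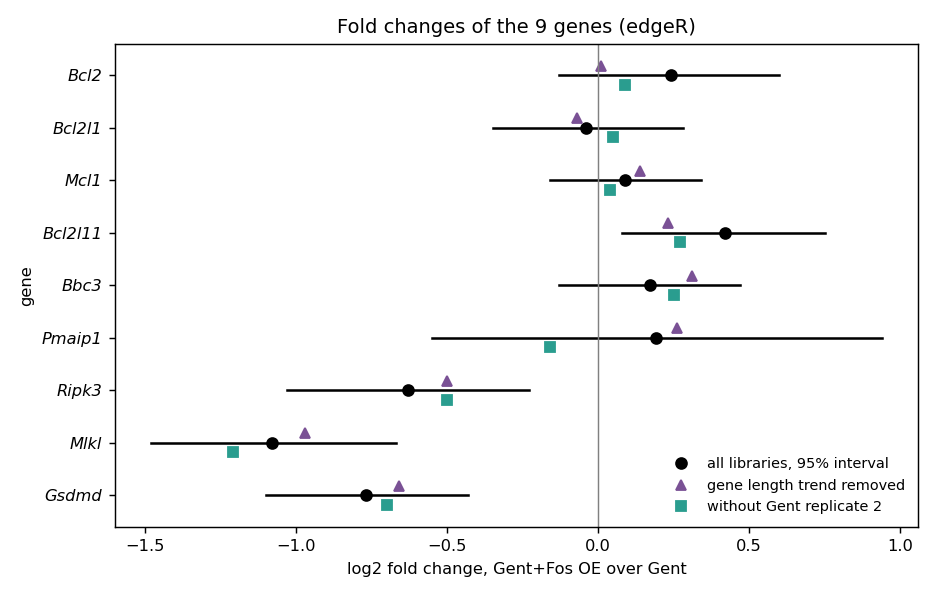
The log2 fold change (Gent+Fos OE over Gent) of the 9 genes from edgeR, with circles for all 7 libraries and lines for their 95% confidence intervals, triangles for values with the gene length trend removed and squares for values without Gent replicate 2. Mlkl, Gsdmd and Ripk3 lie below 0 in all 3 fits and Bcl2l11 above 0, while Pmaip1 moves from 0.19 to -0.16 without Gent replicate 2.

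Divided by exon length, the levels of the genes could be compared with each other. In Gent the order was Mcl1 at 65.5 ± 4.78 CPM per kb (SD, n = 3), Bcl2l1 at 27.7 ± 3.89, Gsdmd at 11.0 ± 0.916 and Bbc3 at 6.70 ± 0.657, followed by Bcl2l11 at 5.67, Ripk3 at 5.41, Mlkl at 4.58, Bcl2 at 2.56 and Pmaip1 at 2.55. The libraries of Mcl1, Bcl2l1 and Gsdmd did not overlap with those of the next gene, whereas Bbc3, Bcl2l11, Ripk3 and Mlkl overlapped from each gene to the next, and so did Bcl2 and Pmaip1. By its mean over all 7 libraries, the level of Mcl1 stood above those of 96.4% of all tested genes and that of Bcl2l1 above 89.5%. In Gent+Fos OE the leading pair kept its place, with Mcl1 at 69.8 ± 0.999 and Bcl2l1 at 27 ± 3.07 CPM per kb (SD, n = 4). Gsdmd stood at 6.45 ± 0.946, behind Bcl2l11 at 7.57 ± 0.662 and Bbc3 at 7.55 ± 0.406 and overlapping with Bbc3. Mlkl stood last at 2.17 ± 0.235, with libraries that overlapped those of Pmaip1 at 2.91 ± 0.681.

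**Figure D3:**
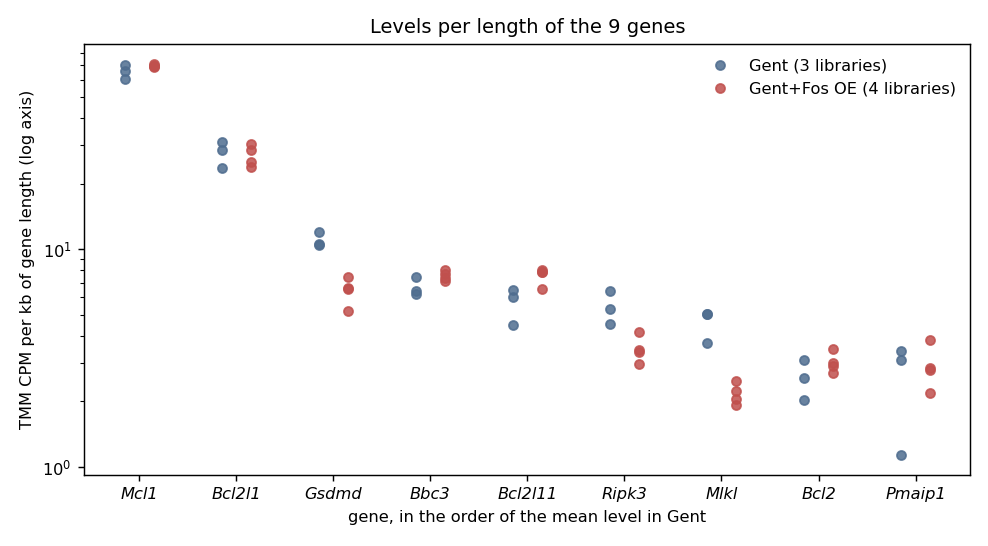
Levels of the 9 genes per length, in TMM-normalized CPM per kb of exons on a log axis, 1 point for each library, ordered by the mean in Gent. Mcl1 and Bcl2l1 stand above the other genes in both groups, and Gsdmd and Mlkl take a lower place in Gent+Fos OE than in Gent.

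The other genes of these pathways were taken from 8 lists with 61 genes, the 9 included, of which 57 were tested. Of the 57, edgeR called 2, both lower (Zbp1 and Il1b), where 0.28% of all tested genes were called lower, and 8 had an adjusted p under 0.05, all lower, against 1.19% of all tested genes. At an unadjusted p under 0.05, 4 were higher and 22 lower, where 11.1% and 13.4% of all tested genes lay. The groups did not overlap for 4 genes in the higher and 20 in the lower direction, against 11.3% and 12.2% of all tested genes. The necroptosis and pyroptosis lists together had a median log2 fold change of -0.62 over 17 tested genes, with 16 of them below 0, whereas the 6 apoptosis lists had a median of -0.09 over 40 tested genes, with 23 below 0. With the length trend removed the medians were -0.55 and -0.06, and without Gent replicate 2 they were -0.50 and -0.05. The difference between the lytic and the apoptosis lists was not tested.

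**Figure D4:**
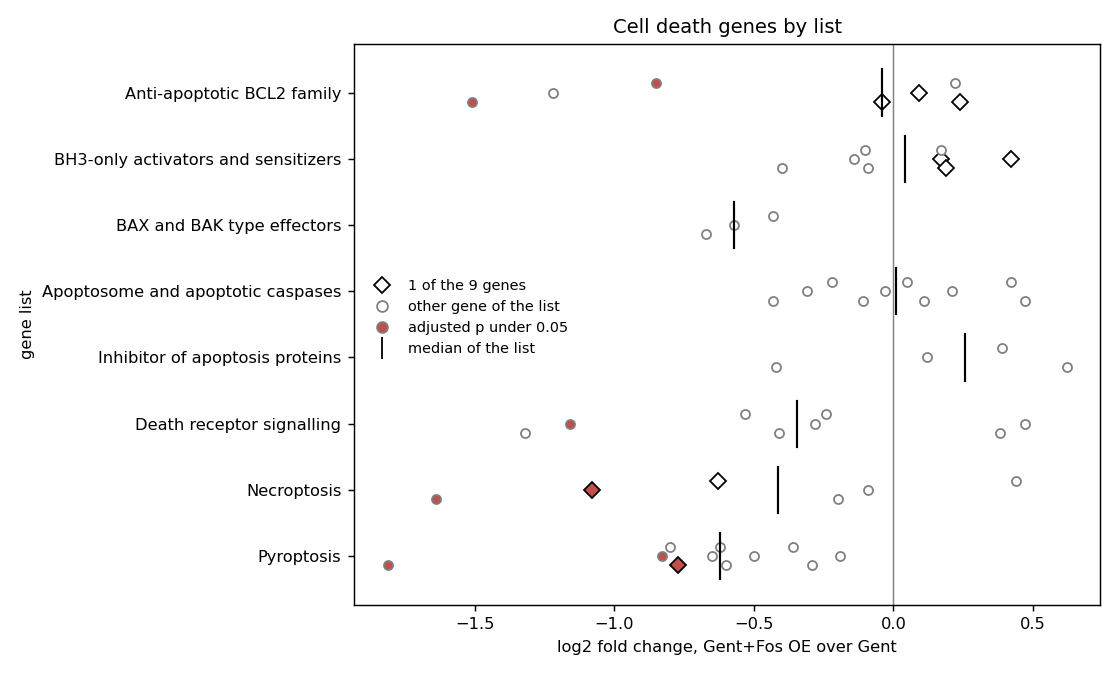
The log2 fold change (Gent+Fos OE over Gent) of the tested genes in each of 8 cell death lists, with diamonds for the 9 genes, circles for the other genes, filled symbols for an adjusted p under 0.05 in edgeR and a vertical line for the list's median. All 11 pyroptosis genes and 5 of 6 necroptosis genes lie below 0, and the medians of the anti-apoptotic, BH3-only and caspase lists lie near 0.

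In the necroptosis list Zbp1 was the gene that fell by the called limits. Zbp1 encodes a sensor of Z-form nucleic acids that engages RIPK3, and its transcription is known to be induced by interferon. It measured 12.9, 10.7, 11.1 and 10.4 CPM in Gent+Fos OE and 36.3, 35.7 and 33.7 CPM in Gent, with the libraries of each group close together and far from the other group. The fold change was -1.64 on the log2 scale (SE 0.13, adjusted p = 0.00056), and with each library left out it stayed between -1.71 and -1.61 with an adjusted p of at most 0.00717. Of the other genes of the list, the kinase gene Ripk1 had a log2 fold change of -0.09 (adjusted p = 0.67), the adaptor gene Ticam1 -0.20 (adjusted p = 0.474) and the deubiquitinase gene Cyld 0.44 (adjusted p = 0.182). Without Gent replicate 2 these were -0.18 for Ripk1, 0.02 for Ticam1 and 0.22 for Cyld, and with the length trend removed -0.29, -0.12 and 0.12. The median of the 6 genes was -0.42. Of them 2 (Zbp1 and Mlkl) were lower at an adjusted p under 0.05, beside 1.19% of all tested genes.

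In the pyroptosis list all 11 tested genes had log2 fold changes below 0, with a median of -0.62 that was -0.57 without Gent replicate 2. Of the 11, edgeR called 1, and 3 had an adjusted p under 0.05. In the lower direction 0.28% and 1.19% of all tested genes passed these limits. Il1b, which encodes the cytokine interleukin-1 beta that is released through gasdermin pores and is not itself an executioner, measured 1.89, 1.84, 1.77 and 1.82 CPM in Gent+Fos OE and 5.07, 7.6 and 6.59 CPM in Gent. It fell by 1.81 on the log2 scale (SE 0.22, adjusted p = 0.00316), with 51 to 60 counts in a Gent+Fos OE library. With any 1 of the 4 Gent+Fos OE libraries or Gent replicate 3 left out, its adjusted p was between 0.0137 and 0.0211 and so above the limit of 0.01. Casp4, the inflammatory caspase that cuts gasdermin D upon cytosolic lipopolysaccharide, measured 12.2, 12.3, 12.1 and 14.9 CPM in Gent+Fos OE and 20.5, 29.5 and 18.4 CPM in Gent. Its log2 fold change was -0.83 (adjusted p = 0.0472), and -0.60 without Gent replicate 2, the highest library. The adjusted p of Casp4 was above 0.05, at 0.0569 to 0.162, with any 1 of the 4 Gent+Fos OE libraries or Gent replicate 3 left out.

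The remaining pyroptosis genes had adjusted p-values above 0.05. The inflammasome sensor Nlrp3 had a log2 fold change of -0.80 (adjusted p = 0.08), its effector caspase Casp1 of -0.62 (adjusted p = 0.14) and the adaptor Pycard of -0.50 (adjusted p = 0.142). For Casp1 the groups overlapped. Ninj1, which encodes a membrane protein that ruptures dying cells, measured 124, 108, 122 and 139 CPM in Gent+Fos OE and 140, 261 and 158 CPM in Gent. Gent replicate 2 was far above the rest, and the log2 fold change of -0.60 (adjusted p = 0.128) was -0.28 (adjusted p = 0.189) without it. Gsdme, another gasdermin gene, had a log2 fold change of -0.29 (adjusted p = 0.25) that was -0.19 without Gent replicate 2 and -0.69 (adjusted p = 0.0924) with the length trend removed, and Gsdma and Gsdmc had too few counts to test.

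In the apoptosis lists 3 of 40 tested genes, Tnf, Bcl2a1a and Bcl2a1b, were lower at an adjusted p under 0.05, beside 1.19% of all tested genes. None was called at 0.01 by edgeR, while DESeq2 called 4, all lower, a direction in which it called 2.14% of all genes with an adjusted p. Tnf, the ligand of a death receptor and an inflammatory cytokine, measured 20.7, 11.2, 15.5 and 21.2 CPM in Gent+Fos OE and 38.7, 42.5 and 33.5 CPM in Gent, with a log2 fold change of -1.16 (SE 0.21, adjusted p = 0.0241). The adjusted p of Tnf was 0.0519 without Gent+Fos OE replicate 1 and 0.103 without Gent+Fos OE replicate 3. The death receptor gene Fas had a log2 fold change of -0.53 (adjusted p = 0.0975), and the ligand gene Tnfsf10, at means of 0.685 CPM in Gent+Fos OE and 1.72 CPM in Gent, had a log2 fold change of -1.32 (adjusted p = 0.101). Cflar, which encodes the caspase-8 inhibitor c-FLIP, had a log2 fold change of 0.47 (adjusted p = 0.186), which was 0.24 without Gent replicate 2 and 0.16 with the length trend removed. The 8 tested death receptor genes had a median of -0.34, which was -0.15 without Gent replicate 2. Fasl, the ligand of Fas, had at most 2 counts in a library and was not tested.

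Bcl2a1a, Bcl2a1b and Bcl2a1d are near-identical copies of a guardian that is known mainly from blood cells, and reads that map to more than 1 copy were left out of the counts, so the share of each copy is uncertain. Bcl2a1a averaged 3.17 ± 1.46 CPM (SD, n = 4) with AAV-Fos and 8.98 ± 0.96 CPM (SD, n = 3) without, and its libraries did not overlap (log2 fold change -1.51, SE 0.32, adjusted p = 0.043). The log2 fold change was -0.85 (SE 0.18, adjusted p = 0.0458) for Bcl2a1b and -1.22 (SE 0.30, adjusted p = 0.0691) for Bcl2a1d. For Bcl2a1a and Bcl2a1b the adjusted p was above 0.05, at 0.0571 to 0.159, without Gent+Fos OE replicate 1, 2 or 3 or without Gent replicate 3. In all 3 copies Gent+Fos OE replicate 4 was the highest of its group. The other tested guardians, Bcl2, Bcl2l1, Mcl1 and Bcl2l2, which are found in many tissues, had log2 fold changes between -0.04 and 0.24 with adjusted p of at least 0.30, and between 0.04 and 0.11 without Gent replicate 2.

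The pore formers Bax, Bak1 and Bok all had log2 fold changes below 0, with a median of -0.57, and none was called. Bak1 measured 33.7, 25.9, 30.6 and 32.5 CPM in Gent+Fos OE and 41.7, 57.0 and 37.9 CPM in Gent. It had a log2 fold change of -0.57 (adjusted p = 0.101) that was -0.38 without Gent replicate 2, its highest library. Of its exons, 18.2% are shared with Ggnbp1 on the opposite strand, which the counting did not use. For Bok and Bax the log2 fold changes were -0.67 (adjusted p = 0.115) and -0.43 (adjusted p = 0.189), or -0.42 and -0.16 without Gent replicate 2 and -0.49 and -0.24 with the length trend removed. Casp8, the initiator of the death receptor route, had a log2 fold change of -0.03 (adjusted p = 0.925), and Casp9, the initiator of the mitochondrial route, had a log2 fold change of 0.11 (adjusted p = 0.669). Without Gent replicate 2 their signs turned, to 0.04 for Casp8 and -0.03 for Casp9. Apaf1, the scaffold of the apoptosome, had a log2 fold change of 0.47 (adjusted p = 0.222) with an SD of 16.6 CPM around a mean of 44.6 CPM in Gent, and it was 0.21 without Gent replicate 2 and 0.27 with the length trend removed. The 4 inhibitor of apoptosis genes had a median of 0.25, which was 0.06 without Gent replicate 2, and the median of the 8 BH3-only genes was 0.04.

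Markers of macrophages and of interferon signalling were lower in the same libraries as Mlkl, Ripk3 and Gsdmd. The 16 tested interferon response genes (of 18 listed) were all lower in Gent+Fos OE, with a median log2 fold change of -1.10, 7 of them called, and a summed level of 477 to 572 CPM in Gent+Fos OE against 1010 to 1100 CPM in Gent. Of 12 macrophage markers 11 were lower, with a median of -0.69 and 0 called by edgeR, although 9 were lower at an unadjusted p under 0.05 and DESeq2 called 6 as lower. Over all tested genes, the shares in the lower direction were 0.28% called by edgeR, 13.4% at an unadjusted p under 0.05 and 2.14% called by DESeq2. Their summed level was 1200 to 1960 CPM in Gent+Fos OE and 2140 to 2650 CPM in Gent, and 0 of the 12 were at 0. For the defining gene Csf1r the ranges were 105 to 150 CPM and 175 to 258 CPM (log2 fold change -0.75, adjusted p = 0.0547), and for Ptprc, the pan-leukocyte gene, they overlapped at 38.3 to 53.8 CPM and 35.5 to 88.9 CPM (log2 fold change -0.37, adjusted p = 0.373). In bulk tissue fewer cells of a type and less RNA per cell cannot be told apart, and the part of macrophages or of interferon signalling in the values of Mlkl, Ripk3, Gsdmd, Zbp1 and Casp4 was not tested.

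Neutrophil markers summed to 3.45 to 5.92 CPM in Gent+Fos OE and 7.05 to 19.4 CPM in Gent, with only 2 of 6 passing the filter. Markers of T and NK cells were under 1 CPM in every library for all 6 genes, with Nkg7 and Gzma at 0. The labelled tissue was represented by hair cell markers, which summed to 795 to 1010 CPM in Gent+Fos OE and 680 to 801 CPM in Gent. Supporting cell markers summed to 1510 to 1850 CPM and 1300 to 1660 CPM. Both sums overlapped between the groups, that of the hair cell markers by its lowest Gent+Fos OE and highest Gent library. Of the 9 hair cell markers, edgeR called 1 higher, beside 0.134% of all tested genes. The groups did not overlap for 3, all higher, beside 11.3% of all tested genes in that direction. The median log2 fold change of the hair cell markers was 0.09, with 5 above 0. With the length trend removed it was -0.05, with 6 below 0. Melanocyte markers did not overlap, at 33.5 to 38.0 CPM in Gent+Fos OE and 76.9 to 118 CPM in Gent, while mesenchyme, endothelial and Schwann cell markers did.

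**Figure D5:**
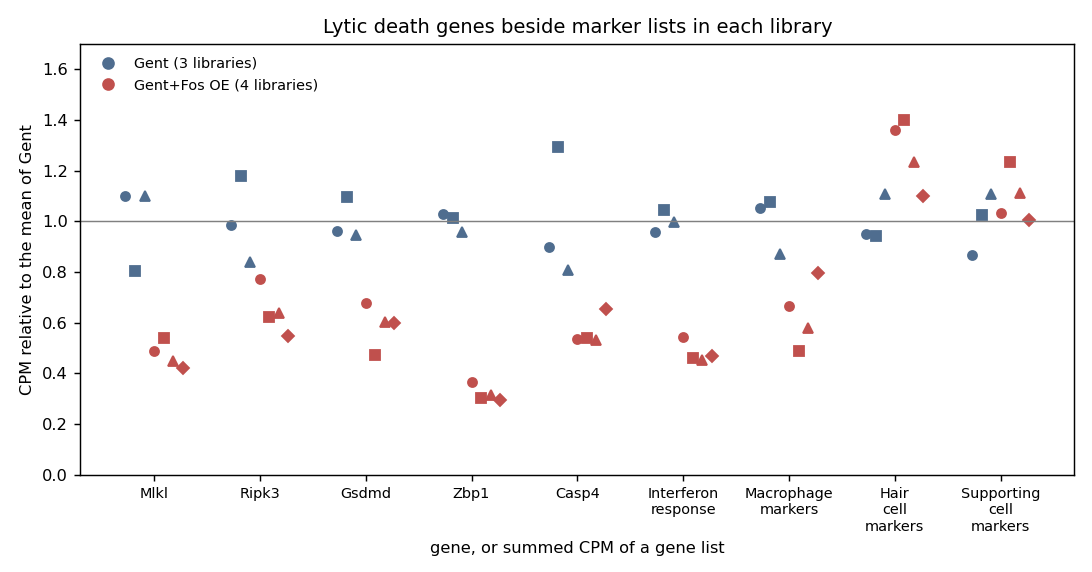
Levels of 5 lytic death genes and summed levels of 4 gene lists in each library, as CPM divided by the mean of the 3 Gent libraries, on a linear axis that starts at 0; circles, squares, triangles and diamonds are replicates 1 to 4. Mlkl, Ripk3, Gsdmd, Zbp1, Casp4, the interferon list and the macrophage list lie lower in every Gent+Fos OE library than in any Gent library, whereas hair cell and supporting cell markers overlap between the groups. Of the 17 tested necroptosis and pyroptosis genes, 9 were lower and 1 was higher without overlap, beside 12.2% and 11.3% of all tested genes. The 5 genes shown are among these 9 and do not stand for the rest.

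Since Fos acts in the AP-1 complex on DNA, the bases just upstream of the start sites were also read. RefSeq windows on GRCm38.p6 (mm10) gave 250 upstream bases for 7 of the 9 genes, in 12 windows, and Gsdmd and Pmaip1 had none. The letters searched on both strands were TGANTCA (AP-1), TGACGTCA (CRE), GAAA and GAAA parted by 2 bases (interferon-stimulated response element) and TTCNNNGAA (gamma-activated sequence). None of the 12 windows held any of these, where 6.75%, 1.55%, 2.98% and 7.02% of 32851 windows of all genes did. The windows of the necroptosis pair, whose levels were lower in Gent+Fos OE, are shown from 5′ to 3′ on the gene's strand, all in lower case as no searched letters occur in them, for Mlkl at chr8:111338206-111338455 (minus strand) and for Ripk3 at chr14:55788858-55789107 (minus strand).
Mlkl: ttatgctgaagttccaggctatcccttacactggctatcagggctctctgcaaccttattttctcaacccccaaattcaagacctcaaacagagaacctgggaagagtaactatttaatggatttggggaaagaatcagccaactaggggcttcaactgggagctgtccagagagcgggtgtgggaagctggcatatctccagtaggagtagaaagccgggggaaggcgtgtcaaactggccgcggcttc
Ripk3: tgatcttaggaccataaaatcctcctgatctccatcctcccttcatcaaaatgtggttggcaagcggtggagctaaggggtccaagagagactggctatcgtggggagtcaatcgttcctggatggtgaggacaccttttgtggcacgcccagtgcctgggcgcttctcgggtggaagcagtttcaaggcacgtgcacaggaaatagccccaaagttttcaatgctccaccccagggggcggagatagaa

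Among all 25 named genes, of which 22 had a window, AP-1 letters occurred upstream of the 3 Bcl2a1 copies and of Fas, beside 7.82% of all 27025 genes with windows. These genes are named for their small p-values, and nothing about the named genes is read from this count. The stretches around them are shown with the AP-1 letters in capitals, because they hold the only AP-1 letters in the windows of the named genes. They lie at chr9:88956780-88956826 (plus strand) for Bcl2a1a, chr9:89199089-89199135 (plus strand) for Bcl2a1b, chr9:88731938-88731984 (minus strand) for Bcl2a1d and chr19:34290428-34290474 (plus strand) for Fas. The capitals begin 120, 164, 114 and 211 bases before the RefSeq start sites, and Fas also holds the letters of a gamma-activated sequence 93 bases before its start.
Bcl2a1a: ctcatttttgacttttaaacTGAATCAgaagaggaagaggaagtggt
Bcl2a1b: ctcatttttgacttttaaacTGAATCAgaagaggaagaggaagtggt
Bcl2a1d: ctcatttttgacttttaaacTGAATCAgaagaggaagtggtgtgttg
Fas: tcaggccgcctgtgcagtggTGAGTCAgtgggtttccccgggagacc
The stretches of Bcl2a1a and Bcl2a1b are identical, so these copies are not independent examples. A match of letters is not a measured binding site, and a window without them says nothing about sites elsewhere.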

How the data were processed

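RNA sequencing counts of 4 Gent+Fos OE and 3 Gent libraries were used, grouped by the sample labels. The study's methods state 3 replicates per condition. The 9 genes and all lists were chosen with earlier results of these data known. The authors deposited raw read counts per gene (27879889 to 34335214 per library), without normalization. Per the file headers they were made by featureCounts 2.0.6 on an mm10 annotation, with the reads of a pair counted separately, strand unused, and reads hitting several places or genes left out. The submitters' processing notes also name Trim Galore 0.6.10, HISAT2 2.2.1 and DESeq2 1.34.0, and the methods name mm39. Coordinates are those of the files (mm10), and 24493 genes received a symbol where GENCODE and RefSeq gave the same name.

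Counts were filtered by filterByExpr and scaled by TMM. They were tested by edgeR 4.0.16 (quasi-likelihood F-test, no covariate, Benjamini-Hochberg over 17155 genes) in R 4.3.3, with DESeq2 1.42.0 and limma 3.58.1 as alternatives. Calls needed an adjusted p under 0.01 with a log2 fold change beyond 0.25 in size. Single genes were compared by exact two-sided permutation tests in Python 3.11.15. Alternatives were limma-voom with and without quality weights, bias-adjusted dispersions, RLE and upper quartile scaling, other filters and limits, a correction for gene length by loess (span 0.3), a block on the replicate number, and each library left out. Named genes were Fos, the 9 genes, and up to 15 more from the lists: those called or with an adjusted p under 0.05, then those with the smallest p. Other list genes named with a value were chosen after their values were seen. The tests were checked on simulated counts, and p-values measure the spread between pools of utricles. Results of some list genes are not reported here.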

Additional observations from a re-analysis of the deposited data

Results flagged for a closer look

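The 25 named genes were checked in the Gent+Fos OE group, the only group with 4 libraries, for a library whose distance to its nearest neighbour took up most of the range of the group. Chance alone flags about 1 in 20 such groups, and 3 of 25 were found. Bcl2l11 was lowest in Gent+Fos OE replicate 4, at 52.8 CPM against 62.9 to 64.3 CPM in the other 3 libraries (gap over range 0.878), which left it close to the highest Gent library at 52.4 CPM. Casp4 was highest in Gent+Fos OE replicate 4, at 14.9 CPM against 12.1 to 12.3 CPM (gap over range 0.923), still below all Gent libraries. Fos was highest in Gent+Fos OE replicate 3, at 167 CPM against 149 to 151 CPM (gap over range 0.873).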

How the results depend on the processing

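Among 20 alternative fits, Mlkl and Gsdmd were lower in Gent+Fos OE in all 20, Mlkl with an adjusted p under 0.01 in 6 and under 0.05 in 15 and Gsdmd in 4 and 13. Ripk3 was also lower in 20, with 0 under 0.01 and 2 under 0.05. The edgeR count of 0 called genes among the 9 became 2 with DESeq2, 1 without the count filter, 2 with limma-voom and sample quality weights, 2 at an adjusted p limit of 0.05, and 0 to 1 with a library left out (1 without Gent replicate 2, Mlkl). The 2 genes called over the 8 lists became 9 with DESeq2, 5 without the filter, 9 with quality weights, 8 at the 0.05 limit and 1 to 3 with a library left out. The 71 called genes of all tested became 611, 204, 961 and 319 in these settings, 130 with the length trend removed, and 5 (without Gent+Fos OE replicate 3) to 138 (without Gent replicate 2) with a library left out. The 2 of 9 genes at an adjusted p under 0.05 became 3 with DESeq2, 3 with quality weights (Ripk3 added in both) and 0 to 2 with a library left out (0 without Gent+Fos OE replicate 1, Gent+Fos OE replicate 3 or Gent replicate 3). DESeq2 fits chosen after seeing the data, without Gent replicate 2 and without Gent+Fos OE replicate 4, called 2 and 2 of the 9 genes, 11 and 9 list genes, and 647 and 558 genes in all.

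The labels do not say whether equal replicate numbers pair the libraries. The deviations of libraries with the same number correlated at 0.06, -0.04 and 0.03, and those with other numbers at -0.06 to 0.04. So few pairs cannot decide whether the libraries were paired. With a replicate block, 0 genes were called in all and 0 on the lists, and 0 of the 9 genes had an adjusted p under 0.05; with the block and the length trend removed, 48 genes were called in all (17 higher, 31 lower), 1 of them on the lists, and 0 of the 9 genes had an adjusted p under 0.05. The sign of small values turned for Bcl2 (-0.01 with the block and length correction), Bcl2l1 (0 with the block, -0.14 to 0.05 with a library left out, above 0 without Gent+Fos OE replicate 1 at 0.01 and without Gent replicate 2, 0.06 and 0.01 in the DESeq2 fits without Gent replicate 2 and Gent+Fos OE replicate 4) and Pmaip1 (-0.16 to 0.46 with a library left out, below 0 without Gent replicate 2, and -0.16 in DESeq2 without that library). The other 22 of the 25 named genes kept their direction in all 20 fits, whereas among further list genes with small values Ripk1, Ticam1, Casp8 and Casp9 changed sign in at least 1 fit. The cause of these shifts was not tested. Counts of the 9 genes ran from 96 (Pmaip1, Gent replicate 2) to 7949 (Mcl1, Gent+Fos OE replicate 2) in a library.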
